A study of Mus musculus with 8 samples.

Results

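The comparison set colon epithelium lacking the sialyltransferase St6galnac6 against colon epithelium carrying a B3galt5 galactosyltransferase mutation. It used 4 of the 8 libraries of the study, those labelled St6galnac6-/- and those labelled B3galt5D116A, and asked what separates the lines at the level of RNA. Each line had 1 male and 1 female library of untreated C57BL/6J mice, and the tissue of every library was colon, given as epithelial cells. The other 4 libraries, 1 male and 1 female each of wild-type and B3gnt7-/- mice, took no part in the test and are given as values beside it. Ages, litters and the number of mice per library are not given in the sources used here. The male and the female library of a line come from different mice, but the labels do not say whether each is 1 animal or a pool. No line has replicates within a sex. Each p-value therefore rests only on the spread between these libraries, that of the gene itself and that borrowed from all genes tested. Littermate controls and backcrossing are not given either, so a difference that comes with a mutation and one that comes with the strain background of a line cannot be told apart. The labels do not say how the alleles were made or which exons they affect.

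Colonic mucins and membrane glycoproteins carry sugar chains that are built stepwise by glycosyltransferases. B3galt5 adds galactose in beta-1,3 linkage to N-acetylglucosamine and so builds type 1 chains, and St6galnac6 adds sialic acid in alpha-2,6 linkage to such chains once they already carry a first sialic acid, as in disialyl Lewis a. B3gnt7 extends chains with N-acetylglucosamine that can carry sulfate. St6galnac6 acts on the finished end of a chain whose core B3galt5 helps to make. The D116A name denotes an amino acid substitution, so the level of B3galt5 RNA does not check that label.

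RNA levels were read as FPKM, fragments per kilobase of transcript scaled to library size, which allows levels of different genes to be compared per length. Differences are St6galnac6-/- minus B3galt5D116A in log2(FPKM + 1), a scale that understates changes of low genes. Of 24346 genes listed, 11477 averaged 1 FPKM or more across the 4 libraries and entered the limma test, with sex as a second term. A gene near 0 in 1 line could thus enter through the other line alone. A gene passed where its Benjamini-Hochberg adjusted p was under 0.05. The 4 libraries held between 11432 and 11465 genes at 1 FPKM or more, and between 8639 and 8823 genes were listed at 0, which may include failed estimates. Read depth is not in the files, and the lowest values gave relative depths of 1.22 and 1.36 for the male and female St6galnac6-/- libraries and 1.45 and 1.26 for the B3galt5D116A libraries, with the wild-type male library as 1. Over the genes tested, log2 values of the male and female library correlated at 0.985 within each line, and libraries of different lines at 0.981 to 0.987, so the lines did not separate by this measure. The 13 general epithelial markers found, among them Epcam and Cdh1, summed to 14566 to 17591 FPKM in the 4 libraries. The female B3galt5D116A library stood apart in Car1, a carbonic anhydrase of surface colonocytes, at 16569 FPKM against 5241 to 8296 in the other 3. Xist and Ddx3y matched the labelled sex in all 4.

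In all, 15 genes passed, which is 0.131% of those tested by limma. Of these, 9 were higher in St6galnac6-/- (0.0784%) and 6 were higher in B3galt5D116A (0.0523%). The 9 were the MHC class II genes Cd74, H2-Aa and H2-Ab1, the kallikrein Klk1b22, the surface protein gene Psca, the sterol transporter gene Abcg5, and Erdr1, Gm10653 and Zfp939. The 6 were the NOD-like receptor gene Naip6, the transport genes Fxyd4 and Slc37a2, Pop4, and the small RNA genes Snora64 and Mir686. The median difference of all genes tested was -0.0029, with 49.3% of genes above 0 and 50.7% below. In 42.4% of genes the libraries of the lines did not overlap, 22.2% with both St6galnac6-/- libraries above and 20.2% with both B3galt5D116A libraries above.

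**Figure D1:**
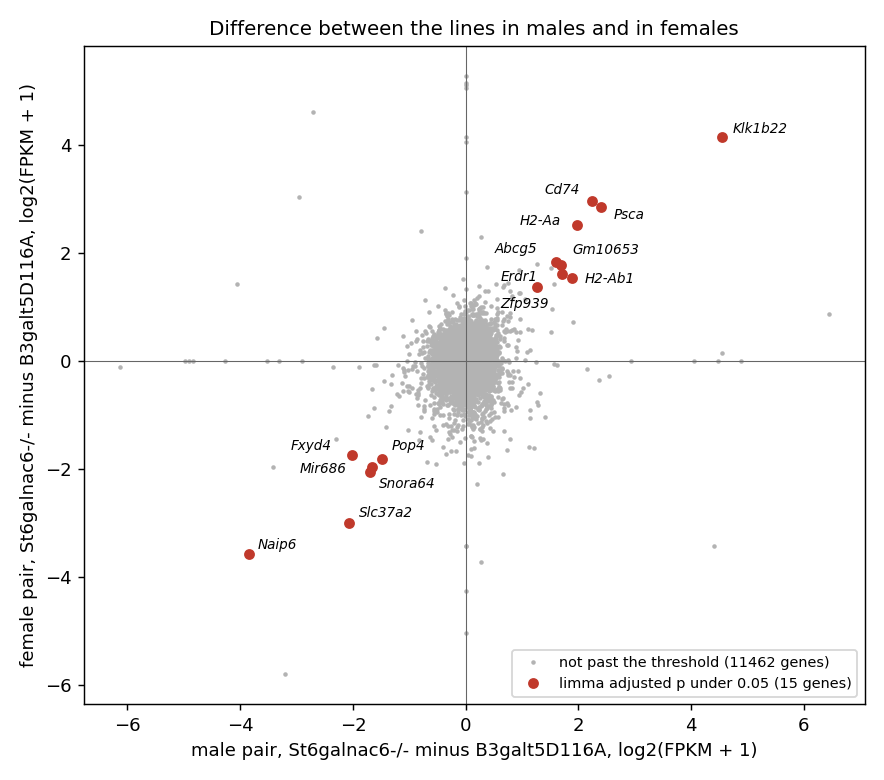
Each point is a gene, with its difference between the male libraries on the x axis and between the female libraries on the y axis, St6galnac6-/- minus B3galt5D116A on the log2(FPKM + 1) scale. The 15 genes with a limma adjusted p under 0.05 are red and named, and all of them had the same sign in both sexes.

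The genes named by the mutations came first. St6galnac6 itself (chromosome 2, 32599709 to 32620806, mm10) stood at 218 FPKM in the male and 232 FPKM in the female St6galnac6-/- library. In the B3galt5D116A pair it stood at 495 and 363 FPKM, male first, 368 and 343 FPKM in wild-type and 397 and 444 FPKM in B3gnt7-/-. Both St6galnac6-/- libraries were the lowest of the 8, but signal remained in each. The difference of -0.91 (SE 0.18) had an unadjusted p of 0.00204 and did not pass (limma adjusted p = 0.360). Since the affected exons are not stated, this gene-level value neither checks nor contradicts the label.

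B3galt5 (chromosome 16, 96235801 to 96319859) stood at 105 and 138 FPKM in St6galnac6-/-, here and below with the male library first, and at 133 and 93.1 FPKM in the B3galt5D116A pair. The values overlapped, and the difference of 0.11 (SE 0.22) did not pass (limma adjusted p = 0.882). B3gnt7 stood at 213 and 265 FPKM against 266 and 154 FPKM, which also overlapped (limma adjusted p = 0.813). Around St6galnac6, 34 genes within 1 Mb were tested, of which 0 passed and 3 had an unadjusted p under 0.05, against 7.31% of all genes. Around B3galt5, 6 genes within 1 Mb were tested, of which 0 passed and 2 had an unadjusted p under 0.05, the smaller p being that of Sh3bgr (difference -0.54, limma adjusted p = 0.420).

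Among the other enzymes of sugar chains, 0 passed, by limma over all genes tested. Of the 9 sialyltransferases tested, out of 20 listed, St6galnac6 alone had an unadjusted p under 0.05, and the median difference was -0.10. St6galnac4, a relative of St6galnac6 that also uses O-glycans and lies next to it, stood at 11 and 13.5 FPKM against 11.6 and 7.71 FPKM, with overlap. St3gal4, which caps galactose with sialic acid, stood at 135 and 109.9 FPKM against 149 and 127 FPKM, also with overlap. Under the filter and not tested, St8sia5 stood at 0.0947 and 0.0424 FPKM against 1.20 and 0.735 FPKM, with wild-type at 1.89 and 5.61 FPKM. St6galnac1, also under it, stood at 1.16 and 1.53 FPKM against 0.389 and 0.599 FPKM. The remaining sialyltransferases under the filter stood at no more than 0.214 FPKM in any of the 4 libraries.

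The 19 galactosyltransferases and Sda-type transferases tested had a median of 0.04 and 1 gene at an unadjusted p under 0.05, and the 18 N-acetylglucosaminyltransferases a median of 0.01 and 2 such genes. All of these lay on the B3galt5D116A side, where 3.73% of all genes had such a p. In B4galt1, which makes type 2 chains, the alternative to the product of B3galt5, the St6galnac6-/- libraries at 20.6 and 23.7 FPKM lay below the B3galt5D116A libraries at 29.5 and 30.9 FPKM. That difference of -0.43 did not pass (limma adjusted p = 0.562). B3gnt6, the core 3 synthase of colonic mucin O-glycans, stood at 6.12 and 5.58 FPKM against 8.73 and 10.9 FPKM (difference -0.65, limma adjusted p = 0.452). Gcnt3, which branches mucin cores, stood at 42.5 and 35.9 FPKM against 52.5 and 71.6 FPKM (difference -0.64, limma adjusted p = 0.632). In all 3 genes the lines did not overlap, and B3galt5D116A was on the higher side, as in 20.2% of all genes. Over the lists, both B3galt5D116A libraries lay above in 6 of the 19 and 6 of the 18 genes. Both St6galnac6-/- libraries lay above in 4 and 3 of them, where 22.2% of all genes did. Among these was B3galt2, at 2.08 and 2.12 FPKM against 1.38 and 1.26 FPKM.

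Of 9 carbohydrate sulfotransferase genes tested, Chst8 alone had an unadjusted p under 0.05. Chst8 reached the filter only through the St6galnac6-/- libraries, with a mean of 2.11 FPKM against 0.298 FPKM, so its place among the genes tested depended on its difference. Chst8 (chromosome 7, 34674468 to 34812711), which sulfates N-acetylgalactosamine, stood at 2.63 and 1.59 FPKM in St6galnac6-/- and at 0.259 and 0.336 FPKM in B3galt5D116A. Wild-type libraries held 2.87 and 3.04 FPKM and B3gnt7-/- libraries 0.268 and 0.320 FPKM, so wild-type lay beside St6galnac6-/- and B3gnt7-/- beside B3galt5D116A. The difference of 1.24 (SE 0.24) did not pass (limma adjusted p = 0.340). The 10 polypeptide N-acetylgalactosaminyltransferases and the 7 fucosyltransferases tested had medians of -0.02 each, the 25 genes of sialic acid and nucleotide sugar supply -0.06, and the 11 ganglioside genes -0.13.

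The MHC class II genes formed the group with the largest median difference of the 46 lists that had 3 or more members tested. MHC class II molecules present peptides from outside the cell to CD4+ T cells and are made mainly by dendritic cells, macrophages and B cells. Intestinal epithelial cells can also make them, under control of the transactivator CIITA, which is recruited to X and Y box elements in front of each class II gene. The deposited values cannot tell fewer cells of a type from less RNA per cell, here or in any result below. Promoter sequence of the class II genes is shown because those 2 elements are what the genes are known to share. H2-Aa, H2-Eb1 and H2-DMb1 are printed 5' to 3' as the 120 bases before the RefSeq start site (GRCm38.p6, the same assembly as mm10). They lie at chr17:34287824-34287943 on the minus strand, chr17:34305747-34305866 on the plus strand and chr17:34153071-34153190 on the plus strand. Capitals mark matches to the X box core CTNGNAACT and the Y box core GATTGG on either strand.
H2-Aa: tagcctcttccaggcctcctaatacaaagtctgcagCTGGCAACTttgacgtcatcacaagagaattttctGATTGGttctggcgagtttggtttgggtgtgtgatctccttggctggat
H2-Eb1: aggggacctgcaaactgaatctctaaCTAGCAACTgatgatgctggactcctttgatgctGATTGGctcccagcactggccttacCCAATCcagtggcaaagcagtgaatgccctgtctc
H2-DMb1: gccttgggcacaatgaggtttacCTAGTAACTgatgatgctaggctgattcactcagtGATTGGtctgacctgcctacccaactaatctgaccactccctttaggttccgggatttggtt
In H2-Aa the X box core began 84 bases and the Y box core 49 bases before the start. In H2-Eb1 they began 94 and 60 bases before it, with another Y box core on the opposite strand 35 bases before it, and in H2-DMb1 97 and 62 bases before it. Of 32851 windows of the same length before RefSeq start sites, 9.67% held the Y box core, 1.57% the X box core and 0.167% both. The X box core leaves 2 letters free, which is where the printed sequences differ. These shares therefore describe how common the letters are and are not a test of the printed matches. The matches do not overlap each other, and neither motif was found in the windows of H2-DMa, which has 2 start sites, or Ctss. The promoters of Cd74 and H2-Ab1 were not examined here. A match describes letters and does not show that a factor binds.

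Cd74 encodes the invariant chain that guides class II molecules to endosomes. It stood at 34.0 FPKM in the male and 39.2 FPKM in the female St6galnac6-/- library, and at 6.43 and 4.13 FPKM in the B3galt5D116A libraries. Both St6galnac6-/- libraries were far above both others, a 6.93-fold ratio of the means and a difference of 2.60 (SE 0.18, limma adjusted p = 0.00847). H2-Aa (chromosome 17, 34282744 to 34287823), the I-A alpha chain, stood at 12.3 and 15.7 FPKM against 2.38 and 1.89 FPKM. That was a 6.57-fold ratio and a difference of 2.26 (SE 0.17, limma adjusted p = 0.00915). H2-Ab1 (chromosome 17, 34257689 to 34269419), the I-A beta chain, stood at 12.3 FPKM in both St6galnac6-/- libraries and at 2.58 and 3.56 FPKM in B3galt5D116A. Its difference was 1.71 (SE 0.14, limma adjusted p = 0.0124). In a fit of all 8 libraries the limma adjusted p was 0.145 for Cd74, 0.0581 for H2-Aa and 0.524 for H2-Ab1, so these 3 did not pass there.

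H2-DMb1, a subunit of the exchange factor that loads peptides, stood at 5.26 and 5.12 FPKM against 1.12 and 1.29 FPKM and just missed the threshold (difference 1.49, SE 0.16, limma adjusted p = 0.0520). H2-Eb1, the I-E beta chain, stood at 4.46 and 4.92 FPKM against 1.65 and 1.68 FPKM (difference 1.09, limma adjusted p = 0.167). H2-DMa stood at 3.62 and 2.66 FPKM against 1.37 and 1.52 FPKM (difference 0.75, limma adjusted p = 0.577). In these 6 genes the lines did not overlap and St6galnac6-/- was above, as in 22.2% of all genes. The protease gene Ctss, which trims the invariant chain, stood at 177 and 163 FPKM against 201 and 179 FPKM, on the opposite side (difference -0.16). So of 7 class II pathway genes tested, out of 12 listed, 3 passed and 6 had an unadjusted p under 0.05 in the direction of St6galnac6-/-, where 3.58% of all genes did. The median difference of the 7 was 1.49, 1.56 between the male and 1.42 between the female libraries.

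The other 5 class II genes were under the filter. Ciita itself stood at 0.393 and 0.527 FPKM in St6galnac6-/- and at 0.0286 and 0.0495 FPKM in B3galt5D116A, and at 0.0832 and 0.0790 FPKM in wild-type. H2-Eb2, H2-DMb2, H2-Oa and H2-Ob were at or under 0.130 FPKM in each of the 4 libraries.

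Wild-type values of Cd74, H2-Aa and H2-Ab1 lay nearer to B3galt5D116A than to St6galnac6-/-. For H2-DMa the wild-type mean of 2.37 FPKM lay nearer to that of St6galnac6-/- (3.14 FPKM) than to that of B3galt5D116A (1.44 FPKM). Wild-type libraries held 8.53 and 6.55 FPKM of Cd74, 3.69 and 2.49 FPKM of H2-Aa and 3.65 and 3.27 FPKM of H2-Ab1. In B3gnt7-/- the male library held 35.9 FPKM of Cd74 and the female 11.9 FPKM, and H2-Aa stood at 13.1 and 7.59 FPKM there. These values of wild-type and B3gnt7-/- are descriptions, and no test was made on them.

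**Figure D2:**
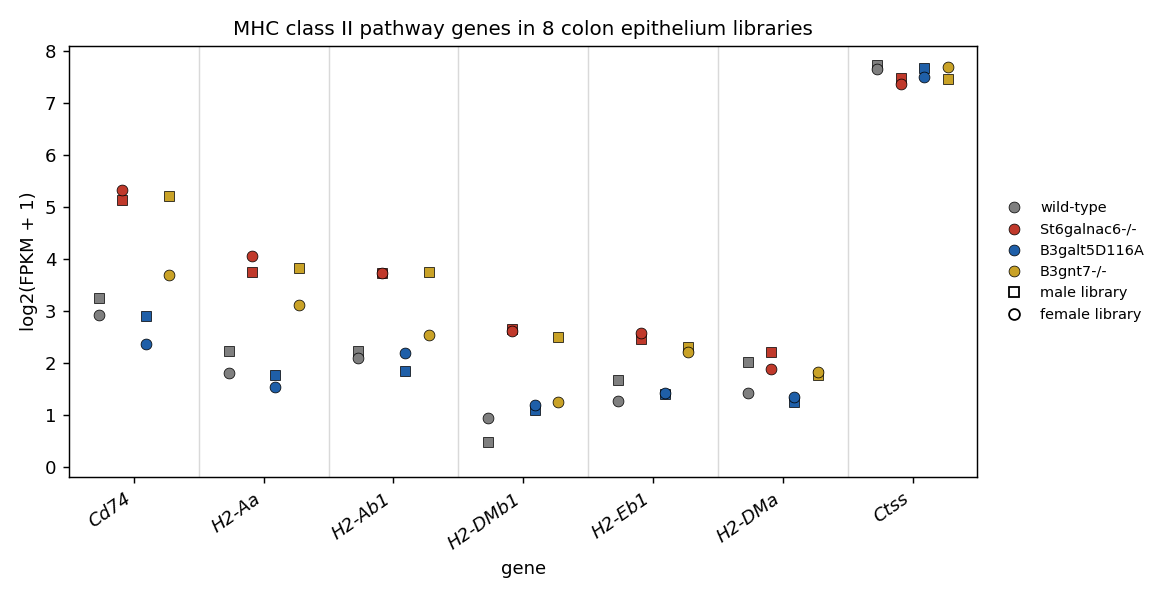
Each marker is 1 library, placed by log2(FPKM + 1), with genotypes in colour, squares for male and circles for female libraries. In all genes but Ctss, both St6galnac6-/- libraries lie above both B3galt5D116A libraries, and for Cd74 the St6galnac6-/- libraries are at 34.0 and 39.2 FPKM.

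Cells other than epithelium make class II, and their markers are given beside it. Of 20 myeloid markers, 7 were tested by limma and 0 passed, with a median of -0.04. Cd68 alone had an unadjusted p under 0.05, at 1.14 and 1.49 FPKM against 2.04 and 3.62 FPKM. Their summed level was 30.6 and 36.3 FPKM in St6galnac6-/- and 30.1 and 37.0 FPKM in B3galt5D116A. Cd14, a lipopolysaccharide coreceptor, made up most of that sum, at 21.9 and 26.3 FPKM against 21.2 and 22 FPKM, so the sum says little of the other markers. The other 5 tested, Lyz2, C1qa, Fcer1g, Tyrobp and Laptm5, stood at no more than 3.45 FPKM in any of the 4 libraries. The macrophage genes Adgre1 and Csf1r stood at no more than 0.0499 and 0.112 FPKM in any of the 4 libraries, Cd163 was listed at 0 in each, and Itgax, of dendritic cells, ranged from 0.119 to 0.178 FPKM. Of 12 B and plasma cell markers found, Sdc1 alone was tested, an epithelial gene as well, and their sum was 119.4 and 113.4 FPKM against 117.0 and 115.2 FPKM. Sdc1 made up nearly all of it, 118 and 113 FPKM against 117 and 115 FPKM. Pax5 and Tnfrsf17 were listed at 0 in all 4, while Cd79a reached at most 0.135 FPKM. The 20 T cell and intraepithelial lymphocyte markers summed to 28.6 and 24.1 FPKM against 18.7 and 46.5 FPKM, with overlap, and 0 of the 9 tested by limma passed or had an unadjusted p under 0.05. In none of these 3 sums were both St6galnac6-/- libraries above both B3galt5D116A libraries. A mast cell gene was higher in St6galnac6-/- as well, but did not pass. Cma1, a mast cell chymase gene chosen after its values were seen, stood at 6.70 and 8.0 FPKM against 2.2 and 1.59 FPKM (difference 1.53, SE 0.18, limma adjusted p = 0.0660). The part of other cell types in the class II result was not tested.

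Antigen presentation by class I and the interferon response are known to share regulators with class II. Of 20 MHC class I pathway genes tested 0 passed, and the median was -0.05. An unadjusted p under 0.05 was found in 3, all in the direction of St6galnac6-/-, where 3.58% of all genes had one. Tap2, a peptide transporter subunit, stood at 14.6 and 15.2 FPKM against 10.8 and 11 FPKM (limma adjusted p = 0.632). Of 35 interferon-induced genes tested 0 passed, and the median was -0.03. In each direction 1 had an unadjusted p under 0.05, where 3.58% of all genes did on the St6galnac6-/- side and 3.73% on the other. The one on the St6galnac6-/- side, the GTPase gene Igtp, stood at 4.94 and 8.84 FPKM against 3.36 and 3.83 FPKM (difference 0.74, limma adjusted p = 0.516). The one on the B3galt5D116A side, Ifit3, stood at 0.757 and 0.508 FPKM against 1.58 and 1.96 FPKM (difference -0.77, limma adjusted p = 0.672). Of the 35 genes, 17 had a difference above 0 and 18 below. Below the filter, the class I transactivator gene Nlrc5 stood at 0.504 and 0.834 FPKM against 0.232 and 0.219 FPKM, and Iigp1, an interferon-induced GTPase gene, at 1.27 and 1.91 FPKM against 0.156 and 0.18 FPKM. Both were above in each St6galnac6-/- library and were not tested. Ifit3b, also below the filter and not tested, lay the other way, at 0.375 and 0.168 FPKM against 0.628 and 0.634 FPKM.

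Klk1b22, Psca and Naip6 were at or near 0 in 1 line. Klk1b22 (chromosome 7, 44112673 to 44116922), a member of the tandem kallikrein protease family, stood at 22.3 and 16.8 FPKM in St6galnac6-/- and was listed at 0 in both B3galt5D116A libraries (limma adjusted p = 0.00136). Wild-type held 21.3 and 25.3 FPKM, and B3gnt7-/- was listed at 0 in both libraries, so the gene had no signal in 2 of 4 genotypes. Its paralog Klk1, far more abundant, stood at 2086 and 2047 FPKM against 1916 and 1712 FPKM (difference 0.19, limma adjusted p = 0.844). Klk1b4 stood at 1.07 and 1.31 FPKM against 2.34 and 2.19 FPKM and Klk1b5 at 3.09 and 3.57 FPKM against 2.48 and 0.995 FPKM, and neither passed (both limma adjusted p = 0.673). The 14 genes of Klk1 and the Klk1b family summed to 2114 and 2069 FPKM against 1922 and 1715 FPKM. These genes are near-identical copies, and how fragments were divided among them is not given in the sources used here, so the level of any 1 of them is uncertain.

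Psca (chromosome 15, 74714839 to 74717069), prostate stem cell antigen, encodes a lipid-anchored surface protein of the Ly6 family. It stood at 5.97 and 6.27 FPKM in St6galnac6-/-, and at 0.326 FPKM in the male and 0 in the female B3galt5D116A library (difference 2.63, SE 0.20, limma adjusted p = 0.00992). Wild-type held 10.1 and 7.20 FPKM and B3gnt7-/- 0.112 and 0. The neighbouring family member Ly6d (chromosome 15, 74762056 to 74763620) stood at 2.26 and 3.42 FPKM against 0.145 and 0.335 FPKM (difference 1.62, limma adjusted p = 0.0986). Of 14 Ly6 family genes tested, Psca alone passed, and the median was 0.03.

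Naip6 (chromosome 13, 100281121 to 100317674) encodes a NAIP protein, the family of receptors that bind bacterial flagellin and secretion system proteins and start the NLRC4 inflammasome. It stood at 0.0784 and 0.0818 FPKM in St6galnac6-/- and at 14.5 and 12.0 FPKM in B3galt5D116A. Wild-type held 13.4 and 15 FPKM and B3gnt7-/- 12.8 and 20.4 FPKM, so St6galnac6-/- alone was near 0. The difference was -3.72 (SE 0.17, limma adjusted p = 0.00170). Naip7 stood at 0 and 0 against 3.90 and 1.73 FPKM in B3galt5D116A and did not pass (limma adjusted p = 0.167). Naip5, a flagellin receptor and close copy of Naip6, was on the opposite side, with 43.4 and 40.2 FPKM against 32.2 and 27.1 FPKM (difference 0.49, limma adjusted p = 0.452). The 3 copies together summed to 43.5 and 40.3 FPKM against 50.6 and 40.8 FPKM. The sums lay closer together than the single genes, and fragments shared by these copies may have been assigned to any of them, so the levels of single copies are uncertain. Naip1 stood at 48.5 and 48.4 FPKM against 52.2 and 53.4 FPKM, and Naip2 at 27.9 and 27.0 FPKM against 30.6 and 26.6 FPKM. Naip6 was the 1 gene that passed of 18 NAIP and inflammasome genes tested, whose median was -0.14. Of the others, Casp4, the inflammatory caspase that senses lipopolysaccharide, stood at 20.7 and 27.4 FPKM against 16.3 and 18.5 FPKM (difference 0.43, limma adjusted p = 0.603).

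Erdr1 stood at 206 and 192 FPKM in St6galnac6-/- and at 62.7 and 62.3 FPKM in B3galt5D116A (difference 1.66, SE 0.12, limma adjusted p = 0.00847). Wild-type libraries held 242 and 341 FPKM and B3gnt7-/- libraries 271 and 297 FPKM, so B3galt5D116A was the low line. Erdr1 was not placed on a chromosome by symbol. Abcg5 (chromosome 17, 84658234 to 84683011), a subunit of the transporter that returns sterols to the lumen, stood at 8.98 and 9.88 FPKM against 2.28 and 2.07 FPKM (difference 1.72, SE 0.14, limma adjusted p = 0.0124). Its partner Abcg8, named here after the values were seen, stood at 2.67 and 2.77 FPKM against 0.900 and 0.580 FPKM (difference 1.10, limma adjusted p = 0.280). Wild-type was split for Abcg5, with 8.47 FPKM in the male and 3.28 FPKM in the female library. Gm10653, a transcribed pseudogene, stood at 14.5 and 13.4 FPKM against 3.79 and 3.18 FPKM (limma adjusted p = 0.00847). Wild-type was split here too, at 15.7 and 4.67 FPKM, and B3gnt7-/- held 22.6 and 9.62 FPKM. In the fit of all 8 libraries Gm10653 did not pass (limma adjusted p = 0.548).

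Presence was set at 1 FPKM or more in both libraries of a line and absence at under 0.5 FPKM in both of the other, limits chosen after values were seen. Of the 24346 genes listed, 8 were present in St6galnac6-/- and not in B3galt5D116A, and 8 the other way round. Some lay close to the limits, such as 4930511A08Rik at 0.447 and 0.399 FPKM against 1.12 and 1.29 FPKM. The first were Klk1b22, Psca, Ly6d, Chst8, Iigp1, the netrin gene Ntn5, 2510003B16Rik and 2810403D21Rik. The second were Naip6, Naip7, Ccdc114, Hebp1, Hist2h4, Ripply1, 4930511A08Rik and A230056P14Rik.

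**Figure D3:**
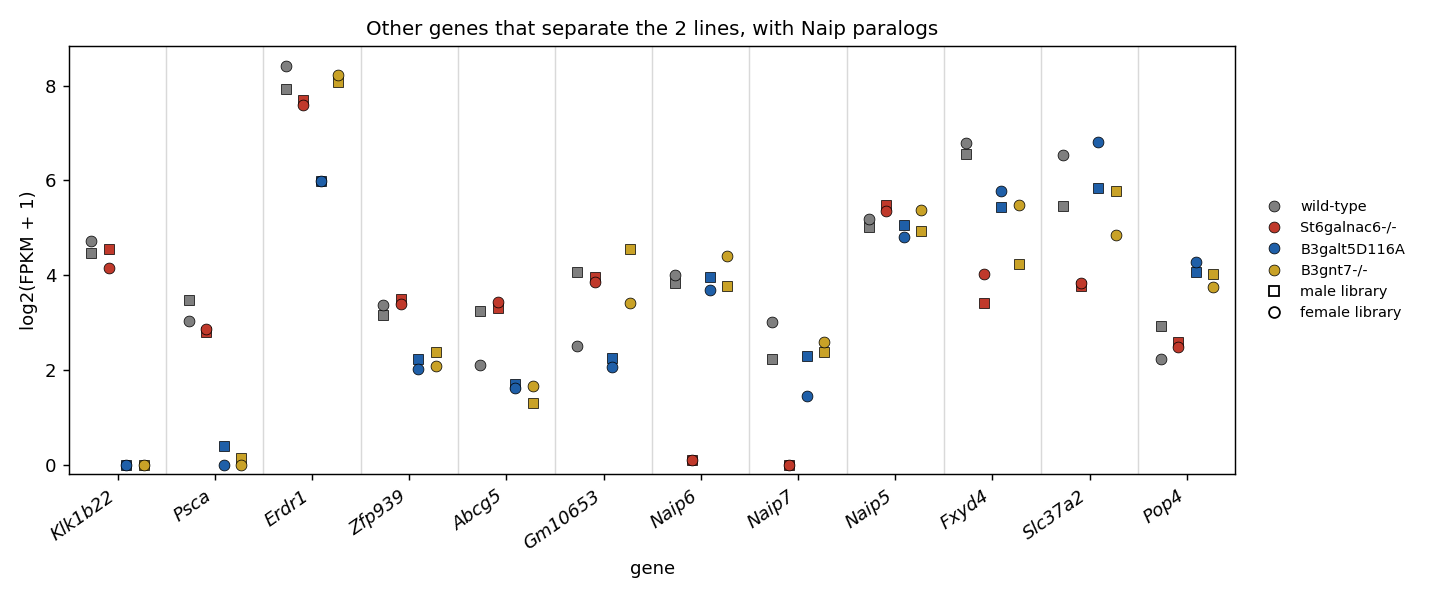
Each marker is 1 library, placed by log2(FPKM + 1), with genotypes in colour, squares for male and circles for female libraries. Klk1b22 is at 0 in B3galt5D116A and B3gnt7-/-, Naip6 is at or under 0.0818 FPKM in St6galnac6-/- alone, and the Naip5 values of the genotypes lie between 27.1 and 43.4 FPKM.

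Several genes that separated the lines lay on chromosome 7, whose members are named here after their values were seen. Of 855 genes tested there, 8 had an unadjusted p under 0.001, which is 0.936%, where 0.366% of all genes tested had one. On chromosome 17 the share was 1.18%, with 7 of 594 genes, among them 4 class II genes, on chromosome 14 it was 1.06%, with 4 of 376, and on chromosome 15 it was 0.891%, with 4 of 449. Pop4 (chromosome 7, 38261996 to 38271423), a protein subunit of ribonuclease P, stood at 5.04 and 4.58 FPKM in St6galnac6-/- and at 15.8 and 18.6 FPKM in B3galt5D116A (difference -1.64, SE 0.13, limma adjusted p = 0.0124). Wild-type held 6.63 and 3.68 FPKM and B3gnt7-/- 15.2 and 12.4 FPKM. Zfp939 (39449518 to 39477413), annotated as a transcribed pseudogene, stood at 10.3 and 9.53 FPKM against 3.72 and 3.04 FPKM (difference 1.32, limma adjusted p = 0.0295). Here too wild-type, at 8.01 and 9.38 FPKM, lay beside St6galnac6-/-, and B3gnt7-/-, at 4.22 and 3.26 FPKM, beside B3galt5D116A.

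By group means of log2(FPKM + 1), wild-type lay nearer to St6galnac6-/- and B3gnt7-/- nearer to B3galt5D116A in 6 of these 8 genes, against 26.2% of the 42 genes with an unadjusted p under 0.001 and 16.1% of all genes tested. The 6 were Pop4, Zfp939, Klk1b22, Ccdc114, Josd2 and Emc10, and the exceptions were Erich4 and Scgb1b3. Erich4 stood at 0.720 and 1.72 FPKM against 3.41 and 4.17 FPKM, with wild-type at 2.92 and 4.43 FPKM. Scgb1b3 stood at 3.52 and 7.70 FPKM against 1.31 and 2.64 FPKM, with wild-type at 0.476 and 1.81 FPKM. In both of these, wild-type lay nearer to B3galt5D116A. The arrangement was read after the values were seen, and no test was made on it. Among the 6 was Emc10 (44489937 to 44496529), a subunit of the membrane protein insertion complex that did not pass (limma adjusted p = 0.216). Emc10 stood at 26.7 and 28.6 FPKM in St6galnac6-/- libraries and 27.9 and 28.7 FPKM in wild-type. B3galt5D116A held 50.3 and 43.9 FPKM, and B3gnt7-/- held 45.0 and 36.7 FPKM. Josd2, a deubiquitinase gene nearby, stood at 9.67 and 10.1 FPKM against 16.8 and 19.5 FPKM (limma adjusted p = 0.146), with wild-type between the lines at 13.1 FPKM in both sexes.

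The transport genes Fxyd4 and Slc37a2 were higher in B3galt5D116A. Fxyd4 (chromosome 6, 117933559 to 117937692), a small regulator of the sodium pump in colon and kidney, stood at 9.67 and 15.4 FPKM in St6galnac6-/- and at 42.2 and 53.9 FPKM in B3galt5D116A. That was a 3.84-fold ratio in favour of B3galt5D116A and a difference of -1.88 (SE 0.12, limma adjusted p = 0.00847). Wild-type was higher still, at 92.8 and 109.9 FPKM, so both mutant lines lay under it. Slc37a2 (chromosome 9, 37227585 to 37255738), a sugar phosphate exchanger, stood at 12.8 and 13.2 FPKM against 56.5 and 112 FPKM (difference -2.53, SE 0.21, limma adjusted p = 0.0124). The B3galt5D116A libraries differed between themselves but both lay above St6galnac6-/-, and wild-type held 43.3 and 91.6 FPKM. B3gnt7-/- held 17.8 and 43.4 FPKM of Fxyd4 and 54.2 and 27.8 FPKM of Slc37a2.

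Of 22 sodium and potassium transport genes tested Fxyd4 alone passed, and the median of -0.01 was near that of all genes. Atp12a, the colonic proton-potassium pump, stood at 13.1 and 19.0 FPKM against 27.4 and 29.0 FPKM (difference -0.80, limma adjusted p = 0.257). Sgk1, the aldosterone-induced kinase, stood at 159 and 131 FPKM against 185 and 247 FPKM (difference -0.57, limma adjusted p = 0.673). Epithelial sodium channel subunit Scnn1a stood at 41.2 and 46.1 FPKM against 41.9 and 30.7 FPKM, with overlap.

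Of 36 absorptive colonocyte genes, all tested, Slc37a2 passed and 9, itself included, had an unadjusted p under 0.05 on the B3galt5D116A side, where 3.73% of all genes did. The difference was below 0 in 34 of the 36, against 50.7% of all genes, and in 21 both B3galt5D116A libraries lay above both St6galnac6-/- libraries, against 20.2% of all genes. Over both sexes, other abundant groups leaned the same way. The difference was below 0 in 38 of 38 nuclear-encoded oxidative phosphorylation genes (median -0.12), 40 of 40 ribosomal protein genes and 10 of 13 general epithelial markers. Both B3galt5D116A libraries lay above in 19, 7 and 9 of them. The medians of these lists were 0.003, 0.03 and -0.08 between the male and -0.23, -0.37 and -0.21 between the female libraries. The lean is thus not shown to be particular to absorptive genes, though in oxidative phosphorylation and ribosomal genes it lay between the female libraries. The sodium-proton exchanger gene Slc9a3 stood at 44.5 and 59.7 FPKM against 60.3 and 75.9 FPKM, and Tmigd1, of mature surface cells, at 44.8 and 40.7 FPKM against 54.3 and 106 FPKM. Neither passed (limma adjusted p = 0.658 and 0.673). The list's median was -0.32, with -0.13 between the male and -0.38 between the female libraries. It was -0.21 without the female library of either line and -0.17 after quantile normalization. Their summed level was 30429 and 26656 FPKM against 35191 and 45897 FPKM, of which Car1 alone, at 16569 FPKM, made up a large part in the female B3galt5D116A library.

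Secretory cell genes gave 0 passes. Goblet cells secrete the mucus layer, and of 31 goblet cell genes tested 4 had an unadjusted p under 0.05 on the St6galnac6-/- side, where 3.58% of all genes did, with a list median of 0.10. The difference was above 0 in 16 of the 31 and below 0 in 15, so the list as a whole was evenly split. Fcgbp, a mucus protein that crosslinks with mucin, stood at 541 and 579 FPKM in St6galnac6-/- and at 315 and 235 FPKM in B3galt5D116A, with wild-type at 182 and 176 FPKM (difference 1.04, SE 0.19, limma adjusted p = 0.275). Clca1, a mucus-processing protease, stood at 1091 and 879.8 FPKM against 505 and 585 FPKM, and at 189 and 228 FPKM in wild-type (difference 0.85, limma adjusted p = 0.571). Both genes were separated between the lines and lowest in wild-type. The male and female B3gnt7-/- libraries were far apart, with 222 and 553 FPKM of Fcgbp and 335 and 946 FPKM of Clca1. Muc2, the main mucin, stood at 1045 and 1463 FPKM against 1452 and 1374 FPKM, with overlap (limma adjusted p = 0.837). The other 2 of the 4 were Bcas1 and Capn9, with differences of 0.50 and 0.39.

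Enteroendocrine cells release hormones, and of 15 of their genes tested 13 had a difference below 0, against 50.7% of all genes. Of these, 2 had an unadjusted p under 0.05, where 3.73% of all genes did on that side. The list's median was -0.19, 0.14 between male and -0.47 between female libraries. Insl5, the insulin-like hormone of colonic L cells, stood at 28.4 and 26.0 FPKM against 51.8 and 46.2 FPKM, and at 11 and 13 FPKM in wild-type. Its difference of -0.83 (SE 0.11) did not pass (limma adjusted p = 0.0977). Pyy, another L cell hormone, stood at 76.6 and 49.9 FPKM against 68.2 and 62.9 FPKM, with overlap. Tac1, of serotonin cells, stood at 2.96 and 4.29 FPKM against 7.0 and 4.93 FPKM (difference -0.59, limma adjusted p = 0.673). Of 22 tuft cell genes found, only 10 were tested, the rest being under the filter. Of the 10, 9 had a difference above 0, against 49.3% of all genes, with a median of 0.10. On that side 2 had an unadjusted p under 0.05, where 3.58% of all genes did. They were Hpgds, the prostaglandin D synthase, at 2.96 and 2.65 FPKM against 1.31 and 1.09 FPKM, and the transcription factor gene Spib, at 1.18 and 2.0 FPKM against 0.715 and 0.413 FPKM. Neither passed (limma adjusted p = 0.462 and 0.673).

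Of 21 epithelial antimicrobial genes tested by limma 0 passed, and the median was 0.01. On the St6galnac6-/- side 2 had an unadjusted p under 0.05, where 3.58% of all genes did. Pla2g2a, a secreted phospholipase gene annotated as a polymorphic pseudogene, stood at 13.5 and 16.6 FPKM against 7.19 and 6.87 FPKM. It stood at 1.62 and 3.77 FPKM in wild-type, and the difference of 0.99 (SE 0.13) did not pass (limma adjusted p = 0.115). Given that annotation, the RNA level does not show that an active enzyme is made. Ang4, a goblet cell ribonuclease, stood at 361 and 158 FPKM against 61.5 and 191 FPKM, with overlap between the lines and 3.98 and 7.56 FPKM in wild-type (limma adjusted p = 0.688). Tgm3 leaned the other way, at 123 and 115 FPKM against 229 and 121 FPKM, also with overlap (difference -0.49, limma adjusted p = 0.673).

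The small RNA genes Snora64 and Mir686 passed as well. Snora64, a small nucleolar RNA, stood at 18.7 and 16.7 FPKM in St6galnac6-/- and at 62.6 and 72.2 FPKM in B3galt5D116A (difference -1.87, limma adjusted p = 0.00847). Mir686, a microRNA locus, stood at 75.3 and 40.8 FPKM against 241 and 163 FPKM (difference -1.82, limma adjusted p = 0.00847), while wild-type ranged from 87.1 to 307 FPKM. Both are short annotations in libraries made with an mRNA kit. Mir719 stood at 10.7 and 0 FPKM against 107 and 54.8 FPKM and Snora24 at 0 and 6.07 FPKM against 9.69 and 26.7 FPKM, and neither passed (limma adjusted p = 0.0660 for each).

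In the other lists 0 genes passed by limma, and in several the median of the male libraries and that of the female libraries differed. The 48 xenobiotic metabolism genes tested had 7 genes at an unadjusted p under 0.05, all on the B3galt5D116A side, where 3.73% of all genes lay, and a median of -0.29, but 0.03 between the male and -0.66 between the female libraries. Without the female library of B3galt5D116A that median was -0.13 and without that of St6galnac6-/- it was -0.12. Without the male library of B3galt5D116A it was -0.46 and without that of St6galnac6-/- it was -0.48. Gstt1, a glutathione transferase gene, stood at 23.8 and 21.9 FPKM against 32.6 and 35.9 FPKM, and Gsta3 at 16.9 and 16.8 FPKM against 24.9 and 23.6 FPKM. These 2 were apart in both sexes and did not pass (limma adjusted p = 0.388 and 0.416). The 30 proliferation genes tested had a median of -0.39 between male and 0.20 between female libraries. Circadian clock genes, 16 tested, had a median of 0.30, and Dbp, an output gene of the clock, stood at 14.2 and 2.83 FPKM against 3.08 and 1.33 FPKM, so that 1 male library carried most of its difference (1.31, limma adjusted p = 0.409). The list's median was 0.09 without that library, 0.14 without the female B3galt5D116A library, and 0.45 and 0.49 without the male B3galt5D116A and the female St6galnac6-/- library. The hour of collection is not given in the sources used here.

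The 18 crypt stem cell and Wnt target genes had a median of 0.14, the 24 endoplasmic reticulum folding genes -0.20 and the 16 posterior Hox and Cdx genes 0.20.

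**Figure D4:**
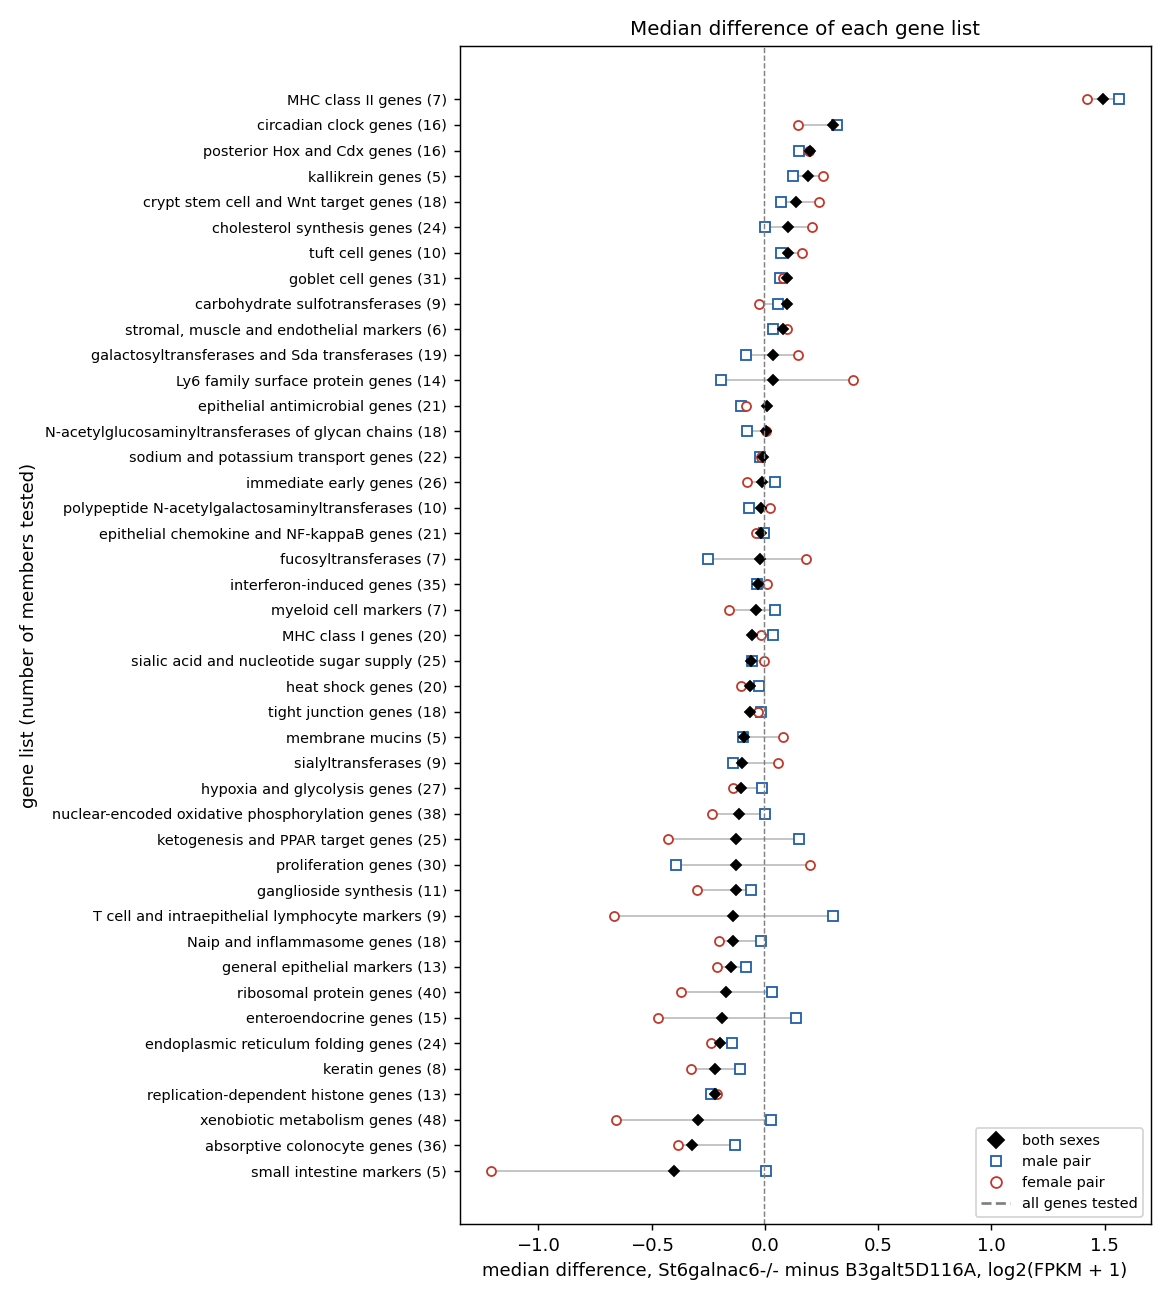
Each row is a gene list with 5 or more members tested, sex-linked genes left out, with the median difference, St6galnac6-/- minus B3galt5D116A on the log2(FPKM + 1) scale, over both sexes (diamond), between male libraries (square) and between female libraries (circle), and the median of all genes as a dashed line. The MHC class II genes lie at 1.49 with both sexes close together, while for the xenobiotic metabolism genes the male libraries give 0.03 and the female libraries -0.66.

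The count of 15 rests on few libraries, since the fit had 1 residual degree of freedom beside 5.31 prior ones. Fitted with all 8 libraries, Klk1b22, Naip6 and Psca alone passed. Klk1b22 and Naip6 passed in each of 16 alternative fits. When 1 library was left out, the sex term was dropped as well, because 3 libraries leave it no residual degree of freedom, so those fits differ in both respects. Of the 15 genes, Cd74, Klk1b22, Naip6, Psca and Slc37a2 passed without the male B3galt5D116A library, and Cd74, Klk1b22, Naip6 and Slc37a2 without the female one. Without the male St6galnac6-/- library Abcg5, Cd74, Erdr1, H2-Aa, Klk1b22, Naip6, Pop4 and Snora64 passed, and without the female one Erdr1, Fxyd4, H2-Aa, Klk1b22, Naip6 and Snora64 did.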

How the data were processed

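RNA from colon epithelial cells was extracted with a miRNeasy Micro kit and made into libraries with the TruSeq stranded mRNA kit, per the labels' protocols. The authors' tools included Cuffdiff 2.2.1, TopHat2 2.1.1, SAMtools 0.1.18 and Bowtie2 2.2.8 on mm10, which the submitters' processing notes list without roles. The authors deposited 1 table of FPKM values per library, per the file headers. The annotation, parameters and scaling between libraries are not given in the sources used here, and no counts were used. The labels give no date or batch, so a batch and the line cannot be told apart. Relative depth was read from values under 0.15 FPKM.

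The deposited FPKM values were taken as log2(FPKM + 1). Genes averaging 1 FPKM or more across the 4 libraries entered a fit in R 4.3.3 with limma 3.58.1 (lmFit, eBayes with trend), with line and sex as terms, two-sided, and Benjamini-Hochberg adjustment over 11477 genes at a threshold of 0.05. Of these, 96.2% were placed on mm10 by symbol with GENCODE gene models. The fit was tested on simulated data with known changes, where the share of false calls came out above the nominal threshold. The members and the 50 gene lists were chosen with earlier results of these data known, so lists were described by counts and medians and not tested. Genes were named by a rule: the targeted genes, in each direction at most 15 genes that passed with 1 sign in both sexes, filled to 10 by p, and at most 4 members of each list described, with paralogs. Names beyond the rule were chosen after values were seen or show a defining marker. Alternatives changed the pseudocount, filter, normalization, sex term, libraries fitted and prior variance, left out each library in turn, and left out 45 small RNA genes. The sex term is the block that the libraries share. Male minus female differences of the lines correlated at 0.0457 over 11477 genes, and 2 pairs are too few to check a pairing.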

Additional observations from a re-analysis of the deposited data

Results flagged for a closer look

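St3gal5, the GM3 synthase that starts ganglioside synthesis, differed in sign between the sexes. The difference, St6galnac6-/- minus B3galt5D116A, was 0.67 between the male and -2.09 between the female libraries, on the log2(FPKM + 1) scale. The St6galnac6-/- libraries held 2.75 and 2.09 FPKM, male first, against 1.36 and 12.1 FPKM in the B3galt5D116A pair, so the female B3galt5D116A library was the high one. The 3 hemoglobin genes tested, which mark red blood cells, had a median of 1.14 between the male and -0.89 between the female libraries. All hemoglobin genes together summed to 45.1 and 24.7 FPKM in St6galnac6-/- and to 18.9 and 46.7 FPKM in B3galt5D116A. With 1 library per line and sex, neither of these differences between the sexes was tested.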

How the results depend on the processing

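Against 15 genes that passed, 9 higher and 6 lower in St6galnac6-/-, the count was 2 (1 and 1) with no filter on low values, 3 (2 and 1) in the fit of all 8 libraries and 2 (1 and 1) in the fit of the 6 mutant libraries. With a mean of at least 5 FPKM it was 20, with 11 lower. It was 14 and 17 with pseudocounts of 0.1 and 5, 10 after quantile normalization, 15 after median centring, 14 without a trend and 18 with a robust prior. Without the sex term, that is without a replicate block of male and female libraries, 13 passed, of which 3 were lower and 12 were among the 15. With small RNA genes left out, an alternative chosen after seeing the data, 16 passed, 13 of them among the 15. Leaving out 1 library, where the sex term is dropped too, since 3 libraries leave it no residual degree of freedom, and the lone library of a line is assumed to vary like the others, gave 9 to 17, with 3 to 13 higher and 4 to 9 lower. Of the 15, 5 and 4 passed without the male and female B3galt5D116A library, and 8 and 6 without the male and female St6galnac6-/- library. In the same leave-out fits the difference of B3galt5 ran from -0.14 to 0.37, of B3gnt7 from -0.16 to 0.62, of St3gal5 from -1.95 to 0.53, of Muc2 from -0.43 to 0.051, of Naip2 from -0.15 to 0.043, of Pyy from -0.39 to 0.22 and of Sdc1 from -0.037 to 0.033. After quantile normalization the signs of Muc2 (0.00611) and Sdc1 (0.0987) turned too. The cause of these shifts was not tested. Depth is known only relative to another library, so no interval or detection limit could be given for low genes such as Ciita.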

Other observations

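For Cma1, the mast cell chymase gene given beside the class II genes, wild-type libraries held 0.709 and 0.673 FPKM, male first, and B3gnt7-/- libraries 2.61 and 0.702 FPKM. The mast cell protease gene Mcpt1, also chosen after its values were seen, had 2.36 and 1.10 FPKM in the St6galnac6-/- pair and 0.860 and 0.397 FPKM in the B3galt5D116A pair (difference 0.72, limma adjusted p = 0.673). Both St6galnac6-/- libraries were above both B3galt5D116A libraries in each of these genes.

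2210407C18Rik stood at 26.6 and 28.6 FPKM in St6galnac6-/- and at 47.0 and 59.8 FPKM in B3galt5D116A (difference -0.92, limma adjusted p = 0.0944). Cholesterol synthesis genes, 24 tested, had a median difference of 0.10, with 17 above 0, against 49.3% of all genes. The 40 ribosomal protein genes had a median of -0.17, 0.03 between the male and -0.37 between the female libraries. All 40 were below 0 over both sexes, against 50.7% of all genes, but the median was 0.00024 after quantile normalization.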
